A study of Mus musculus with 21 samples.

Results

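Microglia from 5XFAD mice labelled Trem1+/- were compared with microglia from 5XFAD mice that carried no Trem1 label, to ask how the Trem1 genotype bears on gene expression in this model of Alzheimer's disease. The comparison used 6 of the 21 libraries of the series, 3 per group, and 3 libraries of adult wild-type microglia from the same table were kept in the fit as context. Of 54532 genes listed, 17025 reached a mean of 10 normalized counts over these 9 libraries and were tested. The labels describe all 9 as primary microglia of the mouse brain from adult animals, without an age in months, a sex, a strain or an isolation method. Both compared groups carry the 5XFAD transgenes, which carry familial Alzheimer's disease mutations and are expressed under the neuronal Thy1 promoter. The Trem1+/- label denotes heterozygosity in place of a full knockout, and which stretch of Trem1 is altered is not given in the sources used here. Whether the 3 libraries of a group stem from different animals is not stated, and p-values here measure the spread between libraries, which may be technical.

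TREM1 is a cell-surface receptor of neutrophils, monocytes and macrophages that has no signalling tail of its own. It pairs with the adaptor DAP12, encoded by Tyrobp, which recruits the kinase SYK and amplifies inflammatory responses. Its relative TREM2 uses the same adaptor and is needed for the full disease-associated state that microglia take on around amyloid plaques, in which homeostatic genes such as P2ry12 decline and genes such as Apoe, Cst7 and Spp1 are induced.

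Reads assigned to genes ranged from 9264999 in 5XFAD replicate 2 to 18698707 in adult wild type replicate 3. Values are normalized counts, read counts divided by a size factor for each library, and are given in the order of replicates 1, 2 and 3. The floor of 3 reads corresponded to 2.26 to 4.36 normalized counts, which covers counting error only. The Trem1+/- libraries were the most alike, with pairwise Pearson r of 0.924 to 0.954 on the log2 scale across genes, against 0.835 to 0.874 among the 5XFAD libraries and 0.878 to 0.905 among wild type. 5XFAD replicate 2 was the shallowest library, and its median r to its own group was 0.843, against 0.855 and 0.862 for the other 5XFAD libraries. Thy1, whose promoter drives the 5XFAD transgenes and which neurons also express, read 1.10, 0 and 0 in wild type, 60.2, 377 and 58.8 in 5XFAD, and 26.1, 31.3 and 56.5 in 5XFAD Trem1+/-.

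Trem1 itself did not differ detectably between the groups. The gene lies at chr17:48232768-48246924 on the plus strand (ENSMUSG00000042265.13, GRCm38). It read 13.7, 32.0 and 36.8 in 5XFAD and 25.1, 18.1 and 38.3 in 5XFAD Trem1+/-, from 15, 22 and 45 reads and 24, 22 and 40 reads. The ranges overlapped and the group means were 27.5 ± 12.2 and 27.2 ± 10.2 (SD, n = 3). The log2 difference, 5XFAD Trem1+/- minus 5XFAD on the log2(normalized count + 1) scale used throughout, was 0.03 ± 1.23 (standard error), with a 95% interval of -2.55 to 2.62 (limma adjusted p = 0.997). That interval contains both a halved and an unchanged level, so the transcript does not check the label here. Standard errors and intervals throughout rest on the spread within all 3 groups of the fit, wild type included. In wild type Trem1 read 62.7, 0 and 30.1, a wider range than in either 5XFAD group, which adds to the width of its interval.

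Across all genes, few or no differences between 5XFAD Trem1+/- and 5XFAD passed an adjusted threshold, depending on the test. With limma, 0 of 17025 genes passed a Benjamini-Hochberg adjusted p of 0.05 (0%), and the smallest adjusted p was 0.406. At an unadjusted p under 0.05, 408 genes were higher in 5XFAD Trem1+/- (2.4%) and 475 were lower (2.79%). The 3 values of one group lay entirely above those of the other for 892 genes on the higher side (5.24%) and 1126 on the lower side (6.61%). The median log2 difference over all genes was 0.02. edgeR's quasi-likelihood test on the whole reads recovered from the normalized counts called 0 genes, with 826 at an unadjusted p under 0.05, whereas DESeq2 called 24, which are described further on. In the same limma fit, 5XFAD against wild type gave 275 genes that rose (1.62%) and 62 that fell (0.364%). Both comparisons share the 5XFAD libraries, so their values are set side by side below as a description.

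How small a difference could be seen depended on the level of the gene. The median 95% half-width was 0.84 on the log2 scale over all genes. It was 2.53 for the 5228 genes with a mean of 10 to 50, 0.82 for the 6617 genes of 50 to 500, and 0.36, or 1.28-fold, for the 5180 genes of at least 500. Among those 5180 genes, 59.58% lay above 0, and 6 differed by more than 1 on the log2 scale.

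The genes with the strongest evidence for a higher level in 5XFAD Trem1+/- are named here as the 10 of smallest unadjusted p among genes with separate groups and a mean of 50 or more in the higher group. None passed the adjusted threshold. All 10 are protein-coding. Cdc42ep1 (chr15:78842624-78850897), an effector of the small GTPase CDC42 that acts on actin and septins, had 0 reads in all 3 5XFAD libraries. It had 127, 55 and 21 reads in 5XFAD Trem1+/-, or 133, 45.3 and 20.1 normalized counts, and 123, 182 and 42.2 in wild type. Over the group means, 66.1 in 5XFAD Trem1+/- against a floor of 3.18 in 5XFAD, it was at least 20.8-fold higher (limma adjusted p = 0.406). That bound holds for the mean, which replicate 1 raised, and not for each library, with replicate 3 at 20.1. The level of Cdc42ep1 in 5XFAD fell against wild type (adjusted p = 0.00154), and the Trem1+/- values overlapped those of wild type.

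The other 9 differed by smaller amounts. Hnrnpk (chr13:58391142-58403343), an RNA-binding protein of the hnRNP family, read 3502, 3883 and 3516 in 5XFAD against 4786, 5653 and 4922 in 5XFAD Trem1+/-, a log2 difference of 0.49 ± 0.11 (limma adjusted p = 0.672). Siglech (chr7:55768178-55778925), a sialic-acid-binding receptor of microglia, read 14189, 12463 and 12135 against 15894, 17318 and 16980, a log2 difference of 0.37 ± 0.09 (adjusted p = 0.693). Its wild-type values were 18832, 16923 and 17794, and it fell in 5XFAD by 0.47 ± 0.09 (adjusted p = 0.0152). Itgb1 (chr8:128685654-128733200), the beta-1 integrin subunit that binds extracellular matrix, read 5566, 4884 and 5196 against 6388, 7846 and 7402 (0.46 ± 0.11). In each of these genes the groups were separate, with the narrowest gap in Siglech.

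The septin gene listed as ENSMUSG00000001833 (named Sept7 in GENCODE M21, chr9:25252439-25308571), a filament protein of the cytoskeleton, read 1849, 2139 and 2116 against 2851, 3005 and 2676 (0.48 ± 0.12). Rcc2, a protein of the RCC1 family with roles in mitosis, differed by 0.67 ± 0.16, and Zmpste24, the protease that matures prelamin A, by 0.60 ± 0.15. Dpy30, a core subunit of the histone H3 lysine methyltransferase complexes of the SET1/MLL type, read 187, 91.6 and 139 against 364, 254 and 303 (1.18 ± 0.32). It was also lower in 5XFAD than in wild type, where it read 251, 390 and 360 (it fell by 1.29, adjusted p = 0.0420). Rhbdd1, a rhomboid protease, differed by 0.92 ± 0.26. Gstp1, a glutathione S-transferase with near-identical neighbours that can share its reads, differed by 1.43 ± 0.40, and by 0.83 without 5XFAD replicate 2, where it read 50.9 against 187 and 173 in the other 5XFAD libraries.

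Of the 10 genes named by the same rule on the lower side, 3 are protein-coding and 7 are not. Fam196b (chr11:34314822-34422640) read 525, 654 and 653 in 5XFAD against 288, 222 and 280 in 5XFAD Trem1+/-, a log2 difference of -1.21 ± 0.24 (limma adjusted p = 0.499). Its wild-type values of 578, 896 and 500 overlapped those of 5XFAD. Adamtsl2 (chr2:27079379-27108981), a secreted glycoprotein of the extracellular matrix, read 112, 196 and 185 against 48.1, 47.8 and 31.6 (-1.91 ± 0.46). Prg2 (chr2:84980461-84983632), the major basic protein of eosinophil granules, read 106, 276 and 40.9 against 1.05, 14.01 and 2.87 (-4.45 ± 1.09, adjusted p = 0.693), with 12.1, 15.2 and 3.02 in wild type. For Prg2 the 5XFAD group was the high one, with its 3 values spread over a wide range.

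The other 7 are noncoding genes or pseudogenes, several of them inside introns of genes that microglia express. Gm37033 (chr1:180357649-180364998), of the annotation class TEC, which marks loci still awaiting experimental evidence, lies within an intron of Itpkb and read 215, 311 and 270 against 65.9, 98.0 and 62.2 (-1.82 ± 0.37). Its host Itpkb differed by 0.12. 4933423P22Rik (chr2:90479236-90488425), antisense within an intron of Ptprj, read 228, 331 and 547 against 110, 131 and 126 (-1.50 ± 0.32), with 0.18 for Ptprj. A130071D04Rik (chr1:138161820-138167683), a TEC gene within an intron of Ptprc, the gene of the leukocyte antigen CD45, read 409, 490 and 462 against 239, 214 and 230 (-0.99 ± 0.23), with 0.05 for Ptprc. Gm15736, antisense within an intron of the chemerin receptor gene Cmklr1, differed by -1.14 ± 0.28 and its host by -0.11, and the TEC gene Gm37606 differed by -1.54 ± 0.35. Gm5846 (-2.83 ± 0.58) and Gm10250 (-1.44 ± 0.32) are processed pseudogenes, whose counts are uncertain because reads can be shared with their parent genes. The strandedness of the counting is not given in the sources used here, so reads of an antisense gene and of its host cannot be told apart.

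**Figure D1:**
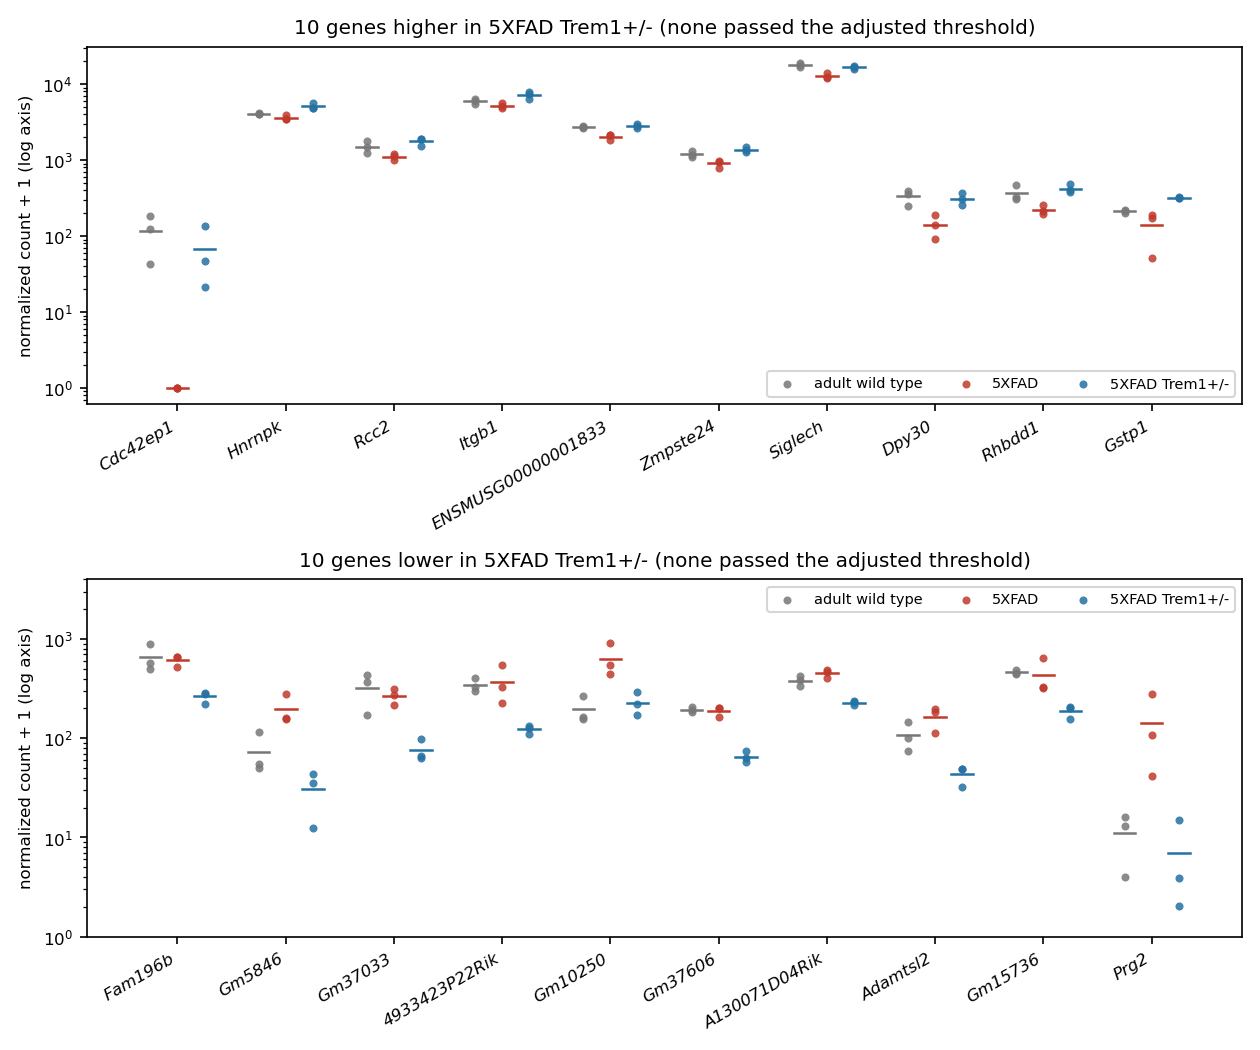
Normalized count + 1 on a log axis for the 10 genes named on the higher side (top) and the 10 on the lower side (bottom); points are the 3 libraries of adult wild type, 5XFAD and 5XFAD Trem1+/- and short lines their means. The 5XFAD and 5XFAD Trem1+/- points do not overlap for any of the 20, which the naming rule required, and the 3 5XFAD points of Cdc42ep1 lie at 0 counts.

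Taken as whole classes, these annotation types lay lower as well. The 898 tested TEC genes had a median log2 difference of -0.55 between 5XFAD Trem1+/- and 5XFAD, the 652 antisense genes -0.32 and the 128 sense-intronic genes -0.42, against 0.04 for the 13212 protein-coding genes. Groups did not overlap on the lower side for 16.3% of TEC genes, 14% of antisense genes and 14.8% of sense-intronic genes, beside 6.61% of all genes and 4.95% of protein-coding genes. On the higher side the share was 0.668% of TEC genes, beside 5.24% of all genes. None of these genes passed the adjusted limma threshold.

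TEC genes took 0.376%, 0.509% and 0.498% of all normalized counts in 5XFAD and 0.322%, 0.276% and 0.26% in 5XFAD Trem1+/-, a ratio of means of 1.61. Wild type, at 0.581%, 0.637% and 0.432%, was higher or within the 5XFAD range. Antisense genes took 0.265%, 0.318% and 0.305% in 5XFAD against 0.232%, 0.205% and 0.185%. The groups were separate in both classes and in sense-intronic genes, with 5XFAD Trem1+/- low in every library and replicate 1 of 5XFAD the nearest to it. The exact two-sided permutation test gave p = 0.1 for each, the smallest that 3 against 3 libraries allow, and 0.167 after adjustment over the 10 classes compared. The comparison of classes was not planned beforehand. Separate shares give this p by construction, so it adds nothing to the separation already described. Processed pseudogenes, processed transcripts and transcribed processed pseudogenes were separate in the same direction with the same p, so that 6 of the 10 classes were, at smaller ratios of means of 1.08, 1.19 and 1.11.

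Paired with the gene whose intron holds it on the same strand, a TEC gene was below its host in 430 of 576 pairs (74.7%). The median log2 difference was -0.60 for these TEC genes and -0.01 for their 390 hosts. For 197 antisense genes inside an intron on the opposite strand it was -0.66, against -0.03 for the hosts. Malat1, an abundant nuclear noncoding RNA, read 94212, 116645 and 106085 in 5XFAD against 81024, 82380 and 67496 in 5XFAD Trem1+/- (-0.46 ± 0.12, limma adjusted p = 0.792, no overlap). Neat1, the nuclear RNA that scaffolds paraspeckles, read 1007, 1322 and 910 against 700, 1019 and 783, with overlap (-0.37 ± 0.22). The TEC median stayed between -0.67 and -0.47 when any single library was left out, and what set these classes apart was not tested.

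**Figure D2:**
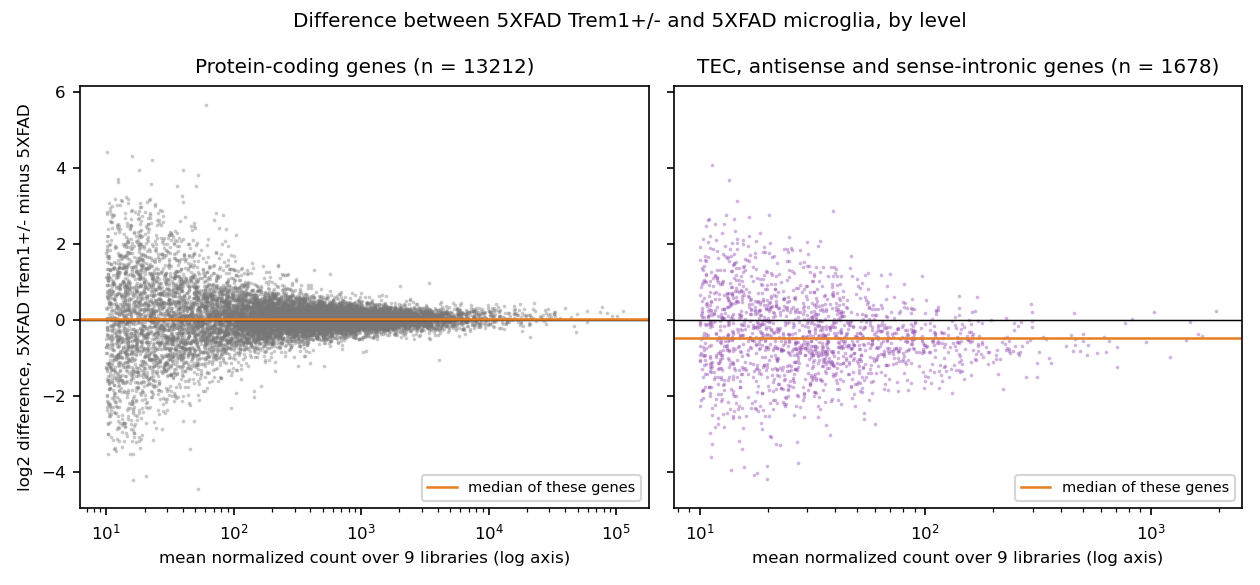
Log2 difference, 5XFAD Trem1+/- minus 5XFAD, of each tested gene against its mean normalized count over 9 libraries (log axis), for 13212 protein-coding genes (left) and for TEC, antisense and sense-intronic genes together (right). The orange line is the median of the genes shown, near 0 on the left and below 0 on the right, and the vertical scatter narrows as the mean rises.

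**Figure D3:**
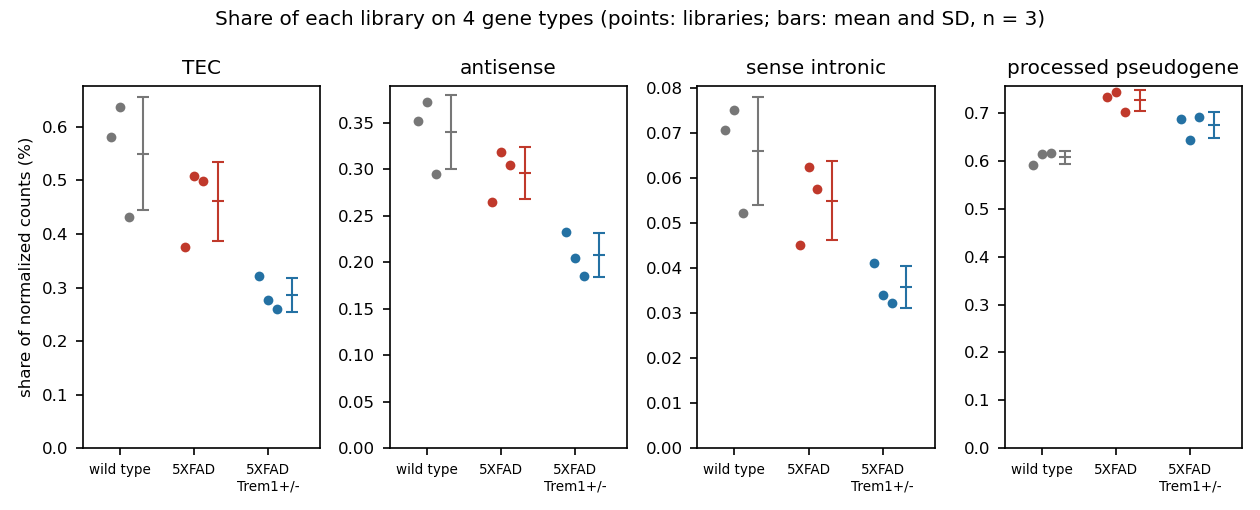
Share of all normalized counts, in percent, on 4 gene classes in each library of adult wild type, 5XFAD and 5XFAD Trem1+/-; points are libraries, and bars give the mean and SD (n = 3). In TEC, antisense and sense-intronic genes the 3 Trem1+/- points lie below the 3 5XFAD points, and wild type is not lower than 5XFAD in its mean.

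Genes of the TREM1 signalling pathway showed no difference that passed the test. Of 26 tested genes of the TREM locus and the DAP12 pathway, 0 passed the adjusted threshold, 0 reached an unadjusted p of 0.05 (2.4% and 2.79% of all genes did, higher and lower), and the median log2 difference was -0.05. That median changed sign without 5XFAD replicate 2 (0.01) or Trem1+/- replicate 1 (0.02). Among receptors, Trem2 read 7643, 8475 and 6248 in 5XFAD against 5792, 7834 and 8071 in 5XFAD Trem1+/- (-0.05 ± 0.19, 95% interval -0.47 to 0.37). Trem3, a second activating receptor of the mouse locus, read 47.4, 65.4 and 31.1 against 13.6, 28.0 and 18.2 (-1.22 ± 1.16, limma adjusted p = 0.946), the 1 member of 26 whose groups did not overlap, beside 6.61% of all genes on the lower side. Treml1, Treml2 and Treml4, relatives in the same locus, differed by -0.11 ± 0.82, -0.04 ± 0.29 and -0.16 ± 1.12.

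Neither adaptor passed the test. Tyrobp, the DAP12 gene, read 4457, 4911 and 3199 against 4100, 5326 and 5565 (0.27 ± 0.16, adjusted p = 0.931). In 5XFAD it rose against wild type by 0.75 ± 0.16 (adjusted p = 0.022), the 1 member of the list that did. Hcst, which encodes the adaptor DAP10, differed by -0.82 ± 0.72 at a low level. Downstream, the kinase gene Syk differed by -0.05 ± 0.11, Plcg2, a phospholipase, by 0.01 ± 0.11, and Card9, an adaptor on the path to NF-kB, by -0.05 ± 0.16. Bcl10, which forms a complex with CARD9, read 702, 944 and 617 against 594, 649 and 577 (-0.29 ± 0.19). Among ligands proposed for TREM1, Pglyrp1, a peptidoglycan recognition protein, differed by -0.25 ± 0.57 and Hmgb1, a nuclear protein released from injured cells, by -0.05 ± 0.23. The 95% interval of Syk ran from -0.28 to 0.19 and that of Plcg2 from -0.21 to 0.24.

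Homeostatic microglial genes were among the best measured. Of 22 tested, 0 passed the adjusted threshold and 19 lay above 0. Beside this stand 51.96% of all genes and 59.58% of those with a mean of at least 500. An unadjusted p under 0.05 was reached by 6, all on the higher side, beside 2.4% of all genes. The groups did not overlap for 4, all higher, beside 5.24% of all genes. The median log2 difference was 0.14, 0.07 without 5XFAD replicate 3 and 0.24 without 5XFAD replicate 2, against 0.02 over all genes. Against wild type, the same genes had a median of -0.30 in 5XFAD, where 4 fell and 1 rose, beside 0.364% and 1.62% of all genes.

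Cx3cr1, the fractalkine receptor gene, read 66922, 68750 and 58369 in 5XFAD against 77018, 77168 and 70934 in 5XFAD Trem1+/- (0.22 ± 0.08, limma adjusted p = 0.931). Wild type was higher than both, at 80931, 92747 and 86725, and the fall in 5XFAD passed the test (it fell by 0.43, adjusted p = 0.0136). Olfml3, a secreted glycoprotein, read 27135, 26375 and 28499 against 32112, 36298 and 30213 (0.26 ± 0.09, adjusted p = 0.863). Its wild-type values of 24222, 22822 and 24129 lay below both.

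Further receptor genes overlapped between the groups. P2ry12, the ADP receptor of ramified microglia, read 32780, 39838 and 22251 in 5XFAD against 43765, 40911 and 31274 (0.32 ± 0.21, limma adjusted p = 0.931), with 5XFAD replicate 3 the lowest. P2ry13, its neighbour, read 9660, 11471 and 7375 against 12676, 12438 and 10770 (0.35 ± 0.13), and Gpr34, a lysophosphatidylserine receptor gene, 11167, 12479 and 7754 against 14171, 15185 and 11181 (0.39 ± 0.16). Tmem119, a microglial membrane protein of unknown function, differed by 0.13 ± 0.12 and Sall1, a transcription factor of microglial identity, by 0.13 ± 0.13. The summed level of the 12 microglial marker genes was 393200, 386900 and 349100 in 5XFAD and 434200, 466500 and 414600 in 5XFAD Trem1+/-, with wild type at 432000, 480300 and 465700. In bulk samples, fewer cells of a type and less RNA per cell cannot be told apart, so this sum does not say how many microglia each sample held.

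Disease-associated genes rose in 5XFAD against wild type and did not pass the test between the 5XFAD groups. Of 34 tested, 21 rose in 5XFAD against wild type (1.62% of all genes did), with a median of 1.47. Between 5XFAD Trem1+/- and 5XFAD, 0 passed and 27 lay above 0. Beside this stand 51.96% of all genes and 59.58% of those with a mean of at least 500. Of the 34, 1 had an unadjusted p under 0.05, on the higher side, beside 2.4% of all genes. The median was 0.19, with values of 0.40 without Trem1+/- replicate 1 and 0.08 without Trem1+/- replicate 3. Apoe, the apolipoprotein E gene, read 10390, 6480 and 10794 in wild type, 98713, 75491 and 78872 in 5XFAD and 63718, 91758 and 93768 in 5XFAD Trem1+/- (-0.03 ± 0.24, 95% interval -0.59 to 0.52). The rise of Apoe in 5XFAD, by 3.22 ± 0.24 (limma adjusted p = 0.000837), was larger than either end of that interval.

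Cst7, the gene of the endosomal protease inhibitor cystatin F, read 2375, 4347 and 1852 in 5XFAD against 1949, 3321 and 4741 (0.23 ± 0.41, limma adjusted p = 0.979), after a rise of 5.67 ± 0.41 against wild type. Gpnmb, a transmembrane glycoprotein of lipid-laden macrophages, read 410, 398 and 530 against 462, 409 and 487 (0.03 ± 0.79), with 0, 0 and 12.8 in wild type. Its standard error also takes in the spread of those wild-type values, while the 6 values compared lay between 398 and 530. Spp1, which encodes osteopontin, read 482, 470 and 2028 against 409, 686 and 953 (-0.26 ± 0.82), 5XFAD replicate 3 being the high value. Csf1, a growth factor of microglia, differed by -0.05 ± 0.22 and Axl, a receptor for apoptotic cells, by 0.17 ± 0.29.

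Clec7a and Itgax both rose in 5XFAD against wild type and lay above 0 here as well. Clec7a, the Dectin-1 receptor gene, read 1728, 1352 and 1033 in 5XFAD against 1860, 1705 and 1886 (0.44 ± 0.22, limma adjusted p = 0.931). Itgax, the CD11c integrin gene, read 926, 970 and 963 against 762, 1542 and 1777 (0.42 ± 0.26). In both, the groups overlapped. Trem1+/- replicate 1 was the lowest of its group for Apoe, Cst7 and Itgax, and the summed level of all 34 genes was 311800, 317400 and 273100 in 5XFAD and 259700, 368700 and 376000 in 5XFAD Trem1+/-. Its first library thus lay below all 3 5XFAD libraries and the other 2 above them.

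**Figure D4:**
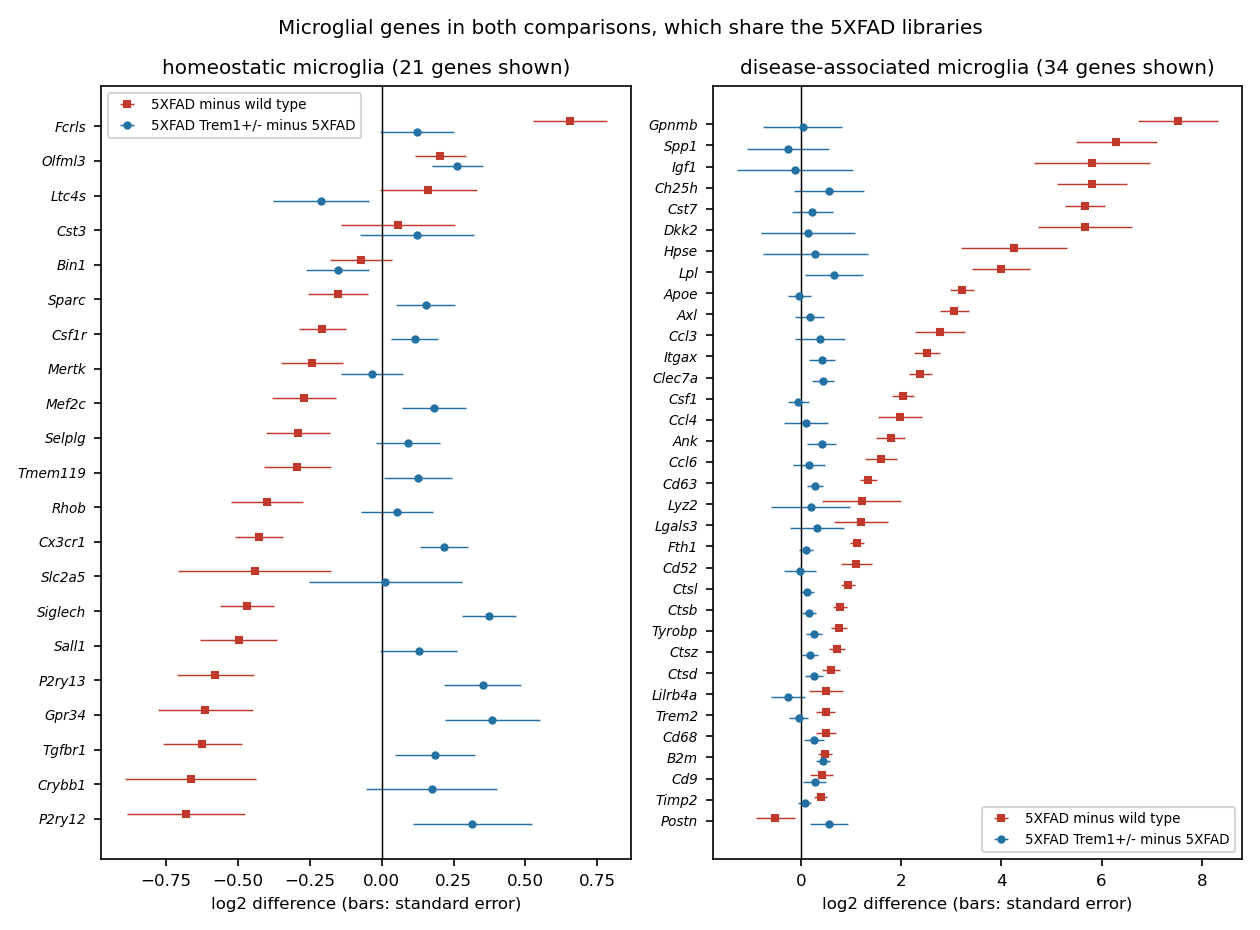
Log2 difference with its standard error for 21 of the 22 homeostatic genes (left) and 34 disease-associated genes (right), as 5XFAD minus wild type (red squares) and 5XFAD Trem1+/- minus 5XFAD (blue circles), sorted by the first. The red values of the disease-associated genes reach 7.53 while their blue values lie between -0.27 and 0.65, and the 2 comparisons share the 5XFAD libraries.

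Antigen presentation and interferon genes showed a few separated members and no call. Of 35 tested type I interferon genes, 0 passed, 1 had an unadjusted p under 0.05 on the higher side, beside 2.4% of all genes, and the median log2 difference was 0.22. That median was 0.09 without 5XFAD replicate 2 and 0.12 without Trem1+/- replicate 1. Isg15, an interferon-induced ubiquitin-like modifier, read 20.1, 0 and 13.1 in 5XFAD against 74.2, 38.7 and 38.3 (2.88 ± 1.09, limma adjusted p = 0.903), and 1.51 without 5XFAD replicate 2. Bst2, the tetherin gene, read 175, 221 and 198 against 227, 292 and 387 (0.58 ± 0.31). Ifit3, which rose in 5XFAD against wild type by 1.62 ± 0.34 (adjusted p = 0.0192), read 317, 254 and 208 against 305, 248 and 202, a difference of -0.05 ± 0.34.

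In the MHC class I list, 0 of 16 passed and the groups of 2 did not overlap, both on the higher side, where 5.24% of all genes lay. The list's median was 0.16, and 0.00074 without 5XFAD replicate 3. B2m, the invariant light chain of class I molecules, read 12666, 12842 and 8275 in 5XFAD against 14924, 15924 and 14003 (0.44 ± 0.14, limma adjusted p = 0.863), and 0.23 without 5XFAD replicate 3. Erap1, the aminopeptidase that trims class I peptides, read 1166, 1012 and 1230 against 1522, 1585 and 1836 (0.54 ± 0.15). Of 12 class II and co-stimulation genes, 0 passed. Cd74, the invariant chain of class II, read 3575, 1426 and 2196 against 7801, 2870 and 1637 (0.57 ± 0.64), highest in replicate 1 of each group.

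Complement, phagocytic and inflammatory lists were also without calls. Of 16 complement genes, 2 had an unadjusted p under 0.05 on the higher side, beside 2.4% of all genes. One of them, C3ar1, the receptor of the C3a fragment, read 4122, 3955 and 4278 in 5XFAD against 3944, 5975 and 5974 (0.34 ± 0.14). Among 22 Fc and phagocytic receptors, Scarb2, a lysosomal membrane protein that carries glucocerebrosidase, read 8857, 8238 and 8580 against 10690, 11198 and 10247 (0.32 ± 0.09, limma adjusted p = 0.793). Itgav, the alpha-V integrin gene, read 4968, 4402 and 4687 against 5904, 5838 and 5301 (0.28 ± 0.11), and fell in 5XFAD against wild type by 0.49 (adjusted p = 0.0205). The groups of Scarb2 and Itgav were separate.

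Of 20 inflammatory cytokine and receptor genes, none had an unadjusted p under 0.05, and the median was 0.07. Il1r2, the IL-1 decoy receptor gene, read 59.3, 34.9 and 69.5 against 8.37, 25.5 and 27.8 (-1.47 ± 0.88), the groups being separate at a low level. Of 38 Toll-like receptor and NF-kB genes, 6 had separate groups on the higher side, beside 5.24% of all genes, and 1 on the lower side. Tlr3, the sensor of double-stranded RNA, read 1165, 1021 and 1079 against 1641, 1406 and 1242 (0.39 ± 0.15), and Tlr6, a partner of TLR2, differed by 0.47 ± 0.21. Nfkbie, an inhibitor of NF-kB, differed by -0.43 ± 0.19, with overlap. Among 16 chemokine and receptor genes, the median was 0.19 and Ccr1, a receptor of CCL3 and CCL5, differed by 0.67 ± 0.30.

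Lysosomal genes leaned to the higher side. Of 38 tested, 0 passed and 30 lay above 0, beside 51.96% of all genes and 59.58% of those with a mean of at least 500. An unadjusted p under 0.05 was reached by 7 on the higher side and 1 on the lower, beside 2.4% and 2.79% of all genes. The summed level of the list was 543900, 550300 and 523300 in 5XFAD and 538800, 678200 and 677200 in 5XFAD Trem1+/-. Trem1+/- replicate 1 thus lay within the 5XFAD range, and replicates 2 and 3 lay above it. The median log2 difference was 0.18. Ctss, the gene of the microglial protease cathepsin S, read 107449, 116127 and 111620 in 5XFAD against 111084, 138655 and 152197 (0.25 ± 0.10, limma adjusted p = 0.931), with overlap through Trem1+/- replicate 1. Glb1, the beta-galactosidase gene, read 569, 835 and 838 against 829, 1149 and 1122 (0.47 ± 0.20), and Lipa, the acid lipase gene, 1334, 1486 and 1687 against 1692, 2051 and 1870 (0.32 ± 0.15). Tfeb, the transcription factor that induces lysosomal genes, ran the other way, with 778, 1021 and 706 against 544, 518 and 634 (-0.55 ± 0.19) and no overlap.

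Lipid and energy genes had small medians. These were 0.04 for 20 genes of lipid efflux and droplets, 0.04 for 24 of cholesterol synthesis, 0.18 for 27 of glycolysis, 0.10 for 24 of the TCA cycle and 0.08 for 73 nuclear genes of oxidative phosphorylation, with 0 calls in each. Nr1h2, the gene of the oxysterol receptor LXR-beta, read 1545, 1890 and 1186 in 5XFAD against 1048, 1267 and 1102 (-0.41 ± 0.18), and Scd2, a fatty acid desaturase gene, 3547, 2749 and 1910 against 3504, 3490 and 3650 (0.42 ± 0.17). Pdk1, a kinase that restrains pyruvate entry into mitochondria, read 1682, 1646 and 1429 against 2095, 1997 and 1863 (0.33 ± 0.14), and Dld, a subunit of pyruvate dehydrogenase and related complexes, 874, 724 and 790 against 1046, 1032 and 1012 (0.38 ± 0.16). The groups were separate for Pdk1 and Dld and overlapped for Nr1h2 and Scd2.

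Of the 13 genes of the mitochondrial genome, mt-Nd1, a complex I subunit, read 10732, 9728 and 12447 against 13096, 13111 and 14809 (0.32 ± 0.12, limma adjusted p = 0.863). The ribosomal RNA mt-Rnr2 read 21187, 26355 and 23169 in 5XFAD and 28262, 26451 and 23909 in 5XFAD Trem1+/-. In wild type it read 210672, 236748 and 205332, far above both. The other ribosomal RNA, mt-Rnr1, read 82302, 90752 and 74847 in wild type against 2615, 10530 and 2526 in 5XFAD. mt-Nd1 ran the other way and rose in 5XFAD against wild type by 0.57 ± 0.12 (limma adjusted p = 0.015). Whether genotype or the preparation of the libraries underlies these differences was not tested. That limit applies to every value of 5XFAD against wild type given here. Of 80 cytosolic ribosomal protein genes, 21 rose in 5XFAD against wild type, beside 1.62% of all genes. Between the 5XFAD groups 0 passed and the median was 0.06. Rpl29 read 1830, 1157 and 1639 against 2116, 2226 and 1912 (0.46 ± 0.18).

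Cell cycle genes depended on single libraries. The median of 32 cell cycle genes was 0.16, but -0.15 without 5XFAD replicate 1 and 0.96 without 5XFAD replicate 3, whose summed level of 23920 stood above 6190 and 6923 in the other 5XFAD libraries and 7830, 13200 and 14910 in 5XFAD Trem1+/-. Nr4a1, an immediate early nuclear receptor gene, read 68.4, 24.7 and 59.6 against 137, 273 and 94.7 (1.69 ± 0.56, limma adjusted p = 0.863) and Ier2, another immediate early gene, 341, 730 and 572 against 216, 339 and 434 (-0.72 ± 0.31). Their directions were opposite, and Ier2 alone of the pair rose in 5XFAD against wild type (1.47 ± 0.31, adjusted p = 0.0189). Canx, the endoplasmic reticulum chaperone calnexin, read 14681, 15115 and 14650 against 15683, 18253 and 19528 (0.26 ± 0.10), and Hspa1b, an inducible heat shock gene with a near-identical copy, 507, 119 and 122 against 15.7, 154 and 43.1.

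The list compiled as Alzheimer risk genes of microglia had a median of 0.14 over 27 tested genes, or 0.06 without 5XFAD replicate 2, with 0 calls. Its 1 unadjusted p under 0.05, beside 2.4% of all genes on the higher side, was that of Siglech. That gene also stands in the homeostatic and microglial marker lists, and its standing as a risk gene was not checked. Spi1, the PU.1 transcription factor gene, read 2794, 2941 and 2991 in 5XFAD against 3023, 3874 and 3496 (0.25 ± 0.13, no overlap), and Picalm, an endocytic adaptor gene, differed by 0.19 ± 0.11. Inpp5d, the gene of the phosphatase SHIP1, read 16673, 16839 and 17919 against 16339, 17296 and 15717 (-0.06 ± 0.09). Among 16 genes of the amyloid precursor and its processing, the mouse App gene read 8485, 6875 and 8135 against 9665, 7908 and 10095 (0.23 ± 0.12), with overlap. Counting against the mouse genome does not separate reads of a human transgene that align there.

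**Figure D5:**
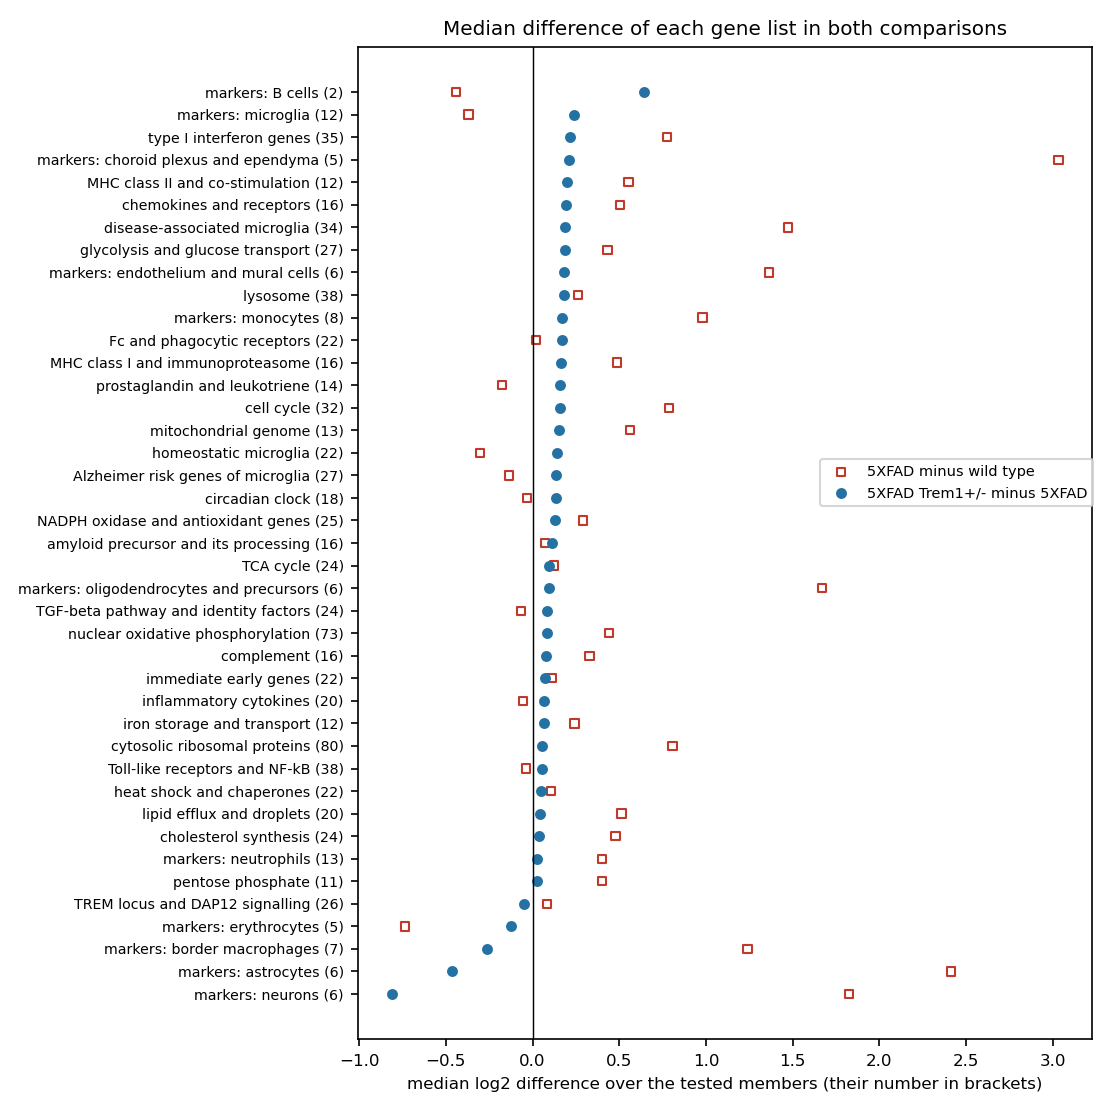
Median log2 difference over the tested members of each gene list, as 5XFAD minus wild type (open red squares) and 5XFAD Trem1+/- minus 5XFAD (filled blue circles), sorted by the latter, with the number of members in brackets. The blue medians of the pathway lists lie between -0.05 and 0.22, and only cell marker lists lie further out.

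Transcripts of other brain and blood cells were present in both groups. The 13 neutrophil markers, the cells in which TREM1 is best known, summed to 11810, 18000 and 18500 in 5XFAD and 23140, 15620 and 11200 in 5XFAD Trem1+/-, with 46890, 3529 and 12680 in wild type. Their median log2 difference was 0.03, 0 of 13 passed, and the groups overlapped, with S100a8 at 968, 1496 and 1363 against 1670, 1118 and 965. Elane was at 0 in 2 5XFAD libraries and Mpo in Trem1+/- replicate 3. The other neutrophil markers were read in every library of both groups. Among them, Ngp read 3945, 3726 and 5319 against 6649, 4188 and 2508, and Ly6g 16.4, 23.3 and 36.0 against 33.5, 39.5 and 31.6. Monocyte markers summed to 1312, 2809 and 6120 against 2139, 3603 and 2794, and none of the 7 T and NK cell markers reached the level to be tested, at sums of 2.45 to 13.1 against 15.3 to 25.5.

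Choroid plexus and ependymal markers summed to 81770, 14960 and 25400 in 5XFAD and 103200, 18240 and 30800 in 5XFAD Trem1+/-, led by Ttr, the transthyretin gene, at 74401, 13288 and 23182 against 94865, 16510 and 27746. Replicate 1 was the high library in both groups. In wild type these markers summed to 6568, 2271 and 4191, below both 5XFAD groups. What such differences in the make-up of the samples add to the rises and falls of 5XFAD against wild type was not tested. Neuronal markers summed to 189, 263 and 557 against 187, 139 and 161. Of the 6 tested, 0 lay above 0, beside 51.96% of all genes and 46.04% of those with a mean of 10 to 50. Their median was -0.81, or -0.14 without 5XFAD replicate 3 and -1.27 without 5XFAD replicate 1. The remaining neuronal marker, Tubb3, fell short of the level to be tested and ran the other way. It read 1.82, 0 and 13.07 against 12.55, 18.13 and 17.23, with overlap. Rbfox3, the neuronal nuclear antigen gene, read 59.3, 87.2 and 62.9 against 42.9, 28.0 and 14.3. Astrocyte markers had a median of -0.46, with 2 of the 6 above 0, and the median was -0.20 without 5XFAD replicate 1, -0.71 without 5XFAD replicate 3 and -0.26 without Trem1+/- replicate 2. Among them was Gfap, the intermediate filament gene of astrocytes, at 671, 663 and 391 against 291, 292 and 512. None of these marker genes passed the test, and their part in the differences given above was not tested.

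DESeq2 on the recovered whole reads, run as an alternative over 22188 genes with an adjusted p, called 5 genes higher (0.0225%) and 19 lower (0.0856%) in 5XFAD Trem1+/-. All 5 higher genes are protein-coding: Cdc42ep1, Hnrnpk, Igsf8, ENSMUSG00000001833 and Ifi202b. Igsf8, a membrane partner of tetraspanins, read 1379, 1211 and 1318 in 5XFAD against 1464, 3143 and 3101, so that Trem1+/- replicate 1 lay close to 5XFAD, and 2360, 2258 and 1952 in wild type. Ifi202b, an interferon-inducible gene of the p200 family, whose members are similar enough to share reads, had 0 reads in 5XFAD and read 0, 75.0 and 48.8 in 5XFAD Trem1+/-. Over the group means it was at least 12.96-fold higher against the floor of 3 reads per library, a value that Trem1+/- replicates 2 and 3 alone carried.

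The 19 lower genes comprised 7 TEC genes, 5 processed pseudogenes, 3 antisense genes and 4 protein-coding genes, which were Prg2, Fam196b, Adamtsl2 and Nsmf. Nsmf, a synapse-to-nucleus signalling protein of neurons, read 554, 500 and 489 in 5XFAD against 326, 290 and 264 in 5XFAD Trem1+/- (DESeq2 log2 difference -0.81 ± 0.20, adjusted p = 0.0493). Its wild-type values of 287, 308 and 308 were close to those of 5XFAD Trem1+/-. The number of DESeq2 calls moved between 5 and 93 when a 5XFAD or Trem1+/- library was left out, being 93 without 5XFAD replicate 1, 9 without 5XFAD replicate 2, 15 without 5XFAD replicate 3, and 22, 5 and 7 without Trem1+/- replicates 1, 2 and 3. Between 3 and 17 of the 24 genes remained in those sets. Cdc42ep1 was called in each of the 6. The DESeq2 adjusted p for the log2 change of Cdc42ep1 lay between 6.46e-06 and 0.00415 there and was 6.01e-05 with all libraries, whereas edgeR gave an adjusted p of 0.331.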

How the data were processed

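Per the submitters' processing notes, the authors used fastp, HISAT2 2.0.5, featureCounts 1.5.0-p3, the GRCm38 build and DESeq2 1.20.0; annotation and strandedness are not given in the sources used here. Per the labels' protocols, RNA came from an RNeasy kit and libraries from an NEBNext Ultra kit. Each deposited per-library value is a signal: the read count over that library's size factor. Division by the value of 1 read gave whole reads, within 0.05 of a read, for 100% of values. The authors' deposited log2 fold changes, scores and p-values were not used.

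Genes with a mean of at least 10 were tested with limma 3.58.1 with trend and robust settings (R 4.3.3), using log2(normalized count + 1) and the 3 groups (9 libraries) in 1 fit, 6 residual degrees of freedom and Benjamini-Hochberg adjustment over 17025 genes. The pseudocount of 1 makes the fold changes of low genes too small. edgeR 4.0.16 and DESeq2 1.42.0 on the recovered whole reads were alternatives. Positions and gene classes come from GENCODE M21, which matched 53749 of 54532 listed symbols and 27 more by identifier. The scripts were tested on simulated data. Named genes were Trem1, the 10 genes per direction described in the text, the TREM list, and up to 3 members of each list by unadjusted p or its most abundant members; Igsf8, Ifi202b, Nsmf, Malat1, Neat1, Thy1 and other list members outside this rule were chosen after their values were seen. The members and lists were chosen with earlier results of these data known. The comparisons of gene classes and of intronic genes with their hosts were not planned beforehand. Same-numbered 5XFAD and 5XFAD Trem1+/- libraries were not treated as pairs. Results for some list members are not reported here; they remain in the list counts and medians.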

Additional observations from a re-analysis of the deposited data

How the results depend on the processing

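The 0 calls between 5XFAD Trem1+/- and 5XFAD held under pseudocounts of 0.5 and 5, a minimum mean of 50, a fit of only the 2 groups, limma without trend and robust, TMM and upper-quartile factors, and edgeR. Without a filter limma called 29 genes (19 higher, among them Siglech, Cx3cr1, Olfml3, B2m and Hnrnpk) and DESeq2 called 24; the cause was not tested. Leaving out 1 library at a time gave 0 to 2 calls with limma (2 without 5XFAD replicate 1, 1 without Trem1+/- replicate 1) and 93, 9, 15, 22, 5 and 7 with DESeq2, an alternative chosen after seeing the data, in the order 5XFAD replicates 1 to 3 and Trem1+/- replicates 1 to 3. The 337 calls of 5XFAD against wild type became 795 without a filter, 32 without trend and robust, 209 with edgeR and 853 with DESeq2, 134 to 368 with limma when 1 library was left out (134 without 5XFAD replicate 1, 137 without wild type replicate 2, 216 without 5XFAD replicate 2), and 645, 900, 827, 837, 691 and 715 with DESeq2 in the order above. With the replicate number as a block, 0 genes were called between the 5XFAD groups (smallest adjusted p = 0.176) and 628 between 5XFAD and wild type. Same-numbered 5XFAD and Trem1+/- libraries had residual correlations of 0.203, 0.0594 and 0.0788, of which the first exceeded the value of 0.1 set for pairing. Each of the 6 correlated best with its own number, a hint from the data and not from the design. The numbers were not taken as pairs, so the main fit left out any structure shared by number.

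Of the alternatives for the named genes, 3818 values kept direction and side of the threshold, 66 passed it, 124 changed sign without a call and 0 reversed a called value. For the list medians 1032 values moved by less than the spread between replicates and 34 by more. With 1 library of the 5XFAD groups left out, the lysosomal, MHC class II and microglial marker medians moved by less than 1.5 times, and every other list median with at least 5 members moved further in at least 1 case. Many list medians changed sign under some alternatives, among them those of the TREM list, cell cycle, cholesterol synthesis, pentose phosphate, iron, clock, ribosomal, oxidative phosphorylation, heat shock and immediate early genes, inflammatory cytokines, NADPH oxidase, and the markers of neutrophils, monocytes, border macrophages, erythrocytes, choroid plexus, endothelium and oligodendrocytes. Not all of these were close to 0, with medians of -0.27 for border macrophages and 0.21 for choroid plexus. The processed pseudogene median went from -0.12 to 0.04 at a minimum mean of 50, and the antisense median from -0.32 to -0.58 with DESeq2. Intervals were widest for low genes such as Trem1.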
